A study of Mus musculus with 4 samples.

Results

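The genes described here are 5 of the 27998 genes counted, *Foxp3*, *Il2ra*, *Ikzf2*, *Ikzf4* and *Gpr83*, chosen by name as genes that mark regulatory T cells. They were followed in T cells of pancreatic islets from female NOD mice, an inbred strain that develops autoimmune diabetes. The mice were pre-diabetic and aged 16 weeks or 8 weeks, with no other treatment or allele in the labels. Live cells with a T cell receptor beta chain at the surface were sorted, and each age has 1 library of single-cell RNA and 1 library of receptor sequences from a Chromium 5′ kit. The number of mice behind a library is not in the labels, so no test between ages was possible. The intervals below cover counting error only, not differences between mice.

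Regulatory T cells, which restrain other T cells and protect islets in NOD mice, owe their identity to the transcription factor Foxp3. *Il2ra* encodes CD25, the chain that gives the interleukin-2 receptor its high affinity, and regulatory cells depend on interleukin-2 made by other T cells. *Ikzf2* (Helios) and *Ikzf4* (Eos) encode zinc finger factors of the Ikaros family, of which Eos is a corepressor partner of Foxp3. *Gpr83* encodes a G protein-coupled receptor found at high levels in mouse regulatory cells. CD25 and Helios are also made by activated T cells without Foxp3.

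In mm10 coordinates of the GENCODE M21 annotation, *Foxp3* lies at X:7573644-7595245 on the forward strand and *Il2ra* at 2:11642807-11693193 on the forward strand. *Ikzf2* lies at 1:69531214-69687245 and *Ikzf4* at 10:128630843-128645991, both on the reverse strand, and *Gpr83* at 9:14860210-14870789 on the forward strand. All 5 are protein-coding, and the counts are over whole genes. RefSeq promoter windows (GRCm38.p6, 250 bases before to 50 after a start) were matched for 3 of the 5 genes, with 4 starts. They are shown because these genes were detected together in the cells described below. Capitals mark matches on either strand to the core Runx letters TGTGG and the STAT letters TTCNNNGAA, and on the forward strand to TATAAA.
Foxp3, first start (X:7579426-7579725, forward strand): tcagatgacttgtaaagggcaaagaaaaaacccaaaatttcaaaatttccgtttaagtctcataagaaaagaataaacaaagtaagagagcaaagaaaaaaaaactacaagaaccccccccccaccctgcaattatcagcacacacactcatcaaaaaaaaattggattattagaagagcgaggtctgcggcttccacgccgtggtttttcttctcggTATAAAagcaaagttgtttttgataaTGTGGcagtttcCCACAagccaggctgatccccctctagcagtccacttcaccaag
Foxp3, second start (X:7580233-7580532, forward strand): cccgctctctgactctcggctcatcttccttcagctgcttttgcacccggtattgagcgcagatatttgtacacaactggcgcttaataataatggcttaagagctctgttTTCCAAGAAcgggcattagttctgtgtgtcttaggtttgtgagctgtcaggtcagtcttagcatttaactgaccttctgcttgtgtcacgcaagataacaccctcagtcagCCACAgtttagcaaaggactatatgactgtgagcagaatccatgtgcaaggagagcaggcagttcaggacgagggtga
Il2ra (2:11642542-11642841, forward strand): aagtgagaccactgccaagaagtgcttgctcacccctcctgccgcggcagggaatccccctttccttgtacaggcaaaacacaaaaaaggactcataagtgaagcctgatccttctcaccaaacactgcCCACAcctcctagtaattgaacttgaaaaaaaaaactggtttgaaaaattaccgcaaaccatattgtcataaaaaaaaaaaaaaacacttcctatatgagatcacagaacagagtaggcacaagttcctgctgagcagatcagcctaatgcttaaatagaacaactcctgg
Gpr83 (9:14859960-14860259, forward strand): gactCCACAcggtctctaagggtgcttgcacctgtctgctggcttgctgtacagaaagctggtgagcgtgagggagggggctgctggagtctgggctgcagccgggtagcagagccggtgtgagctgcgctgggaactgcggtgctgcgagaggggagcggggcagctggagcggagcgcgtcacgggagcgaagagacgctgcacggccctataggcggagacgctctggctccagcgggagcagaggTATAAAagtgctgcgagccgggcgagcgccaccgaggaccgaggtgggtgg
Each of the 4 windows held the Runx letters, which 55.8% of 32544 promoter windows of this length also held. Only the second *Foxp3* start held the STAT letters, found in 8.33% of all windows. TATAAA stood in the first *Foxp3* window and the *Gpr83* window, against 8.28% of all windows. The forkhead letters TGTTTAC were in none of the 4 and in 3.66% of all. These matches describe letters and not bound sites.

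The 16-week library held 1929 T cells with a median of 2931 UMIs, each UMI being 1 tagged mRNA molecule, and the 8-week library 1863 with a median of 2975. Cells were gated by their own transcripts. Cd4-gated cells showed *Cd4* but neither *Cd8a* nor *Cd8b1* (742 at 16 weeks and 773 at 8 weeks), and Cd8-gated cells the opposite (322 and 295). A further 776 and 714 cells had neither, and 89 and 81 had both. The gates matched their markers: *Cd4*, *Cd40lg* and *Zbtb7b* together reached 553 and 518 CPM (UMIs of a gene per 1000000 UMIs of the group) in Cd4-gated cells, against 13.3 and 20.2 CPM in Cd8-gated cells, where the gate itself set *Cd4* to 0. The T cell markers *Cd3d*, *Cd3e* and *Cd3g* were all present in every gate. Of cells with a beta chain, 14.3% and 12.8% carried 2 or more productive ones, a sign of more than 1 cell behind a barcode, and in the gate with both lineages the share was 66.3% and 57.0%. The RNA libraries shared 5 barcodes. A share of cells with a UMI grows with depth, so each cell was thinned to 1700 UMIs, which left out 150 and 182 shallower cells. The share expected over all possible draws is given beside the gate shares of *Foxp3*, *Ikzf2* and *Il2ra*.

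*Foxp3* was more often detected in Cd4-gated than in Cd8-gated cells at both ages. At 16 weeks, 42 of 713 Cd4-gated cells had a *Foxp3* UMI at equal depth, 5.89% (95% interval 4.28 to 7.88, expected over all draws 6.54%), against 9 of 307 Cd8-gated cells, 2.93% (1.35 to 5.49, expected 2.55%). At 8 weeks, 49 of 714 Cd4-gated cells had one, 6.86% (5.12 to 8.97, expected 7.35%), against 3 of 285 Cd8-gated cells, 1.05% (0.218 to 3.04, expected 2.16%). The difference between gates was 2.96 points at 16 weeks (0.003 to 5.37) and 5.81 points at 8 weeks (3.23 to 8.02). The 16-week interval included 0 with barcodes of several beta chains left out (2.40 points, -0.522 to 4.80) and at 1000 UMIs per cell (2.54 points, -0.074 to 4.64). Summed at full depth, *Foxp3* made up 68.7 CPM of Cd4-gated and 19.95 CPM of Cd8-gated cells at 16 weeks, and 61.7 and 20.2 CPM at 8 weeks. Cells with neither lineage gene lay between the gates at 16 weeks, at 4.63%, and near the Cd4-gated cells at 8 weeks, at 6.48%. At full depth the Cd4-gated shares were 12.5% (93 of 742) at 16 weeks and 15.0% (116 of 773) at 8 weeks.

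*Ikzf2* was the member detected in most cells of every gate. At equal depth it was found in 16.0% of Cd4-gated (114 of 713), 9.77% of Cd8-gated (30 of 307) and 10.4% of cells with neither gene (70 of 670) at 16 weeks. At 8 weeks the shares were 21.1% (151 of 714), 12.3% (35 of 285) and 18.8% (113 of 602). Over all draws, Cd4-gated cells were expected at 16.1% and Cd8-gated cells at 8.99% at 16 weeks, and at 22.0% and 11.5% at 8 weeks. *Ikzf2* detection was 6.22 points higher in Cd4-gated than in Cd8-gated cells at 16 weeks (1.63 to 10.3) and 8.87 points higher at 8 weeks (3.70 to 13.4). Leaving out barcodes with several beta chains gave a 16-week difference of 4.28 points (-0.307 to 8.33).

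*Il2ra*, *Ikzf4* and *Gpr83* were sparse. *Il2ra* was found in 27 of 713 Cd4-gated cells at 16 weeks (3.79%) and 28 of 714 at 8 weeks (3.92%), against 3 of 307 (0.977%) and 6 of 285 (2.11%) Cd8-gated cells. Its difference between gates was 2.81 points at 16 weeks (0.615 to 4.60) and 1.82 points at 8 weeks (-0.874 to 3.85). Over all draws *Il2ra* was expected in 2.97% and 4.12% of Cd4-gated cells, against 0.921% and 2.30% of Cd8-gated cells. *Ikzf4* was found in 11 Cd4-gated cells at 16 weeks (1.54%) and 12 at 8 weeks (1.68%), against 1 (0.326%) and 7 (2.46%) Cd8-gated cells. *Gpr83* was found in 6 (0.842%) and 11 (1.54%) Cd4-gated cells, against 1 (0.326%) and 4 (1.40%) Cd8-gated cells. For these 2 genes the intervals of the difference between gates included 0 at both ages at 1700 UMIs. At full depth the 16-week differences were 3.66 points for *Ikzf4* (1.09 to 5.80) and 2.30 points for *Gpr83* (0.243 to 3.95). The 8-week ones were 0.674 points (-3.09 to 3.73) and 1.09 points (-1.81 to 3.27). The 16-week *Ikzf4* interval also left out 0 at 1000 UMIs per cell (1.48 points, 0.130 to 2.64). At 8 weeks another draw put *Ikzf4* lower in Cd4-gated than in Cd8-gated cells, by -2.39 points (-5.49 to -0.199), so its 8-week direction was not stable. In the gate with both lineages, where multiple beta chains were most frequent, *Foxp3* was found in 14.6% (13 of 89) and 11.25% (9 of 80) of cells.

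**Figure D1:**
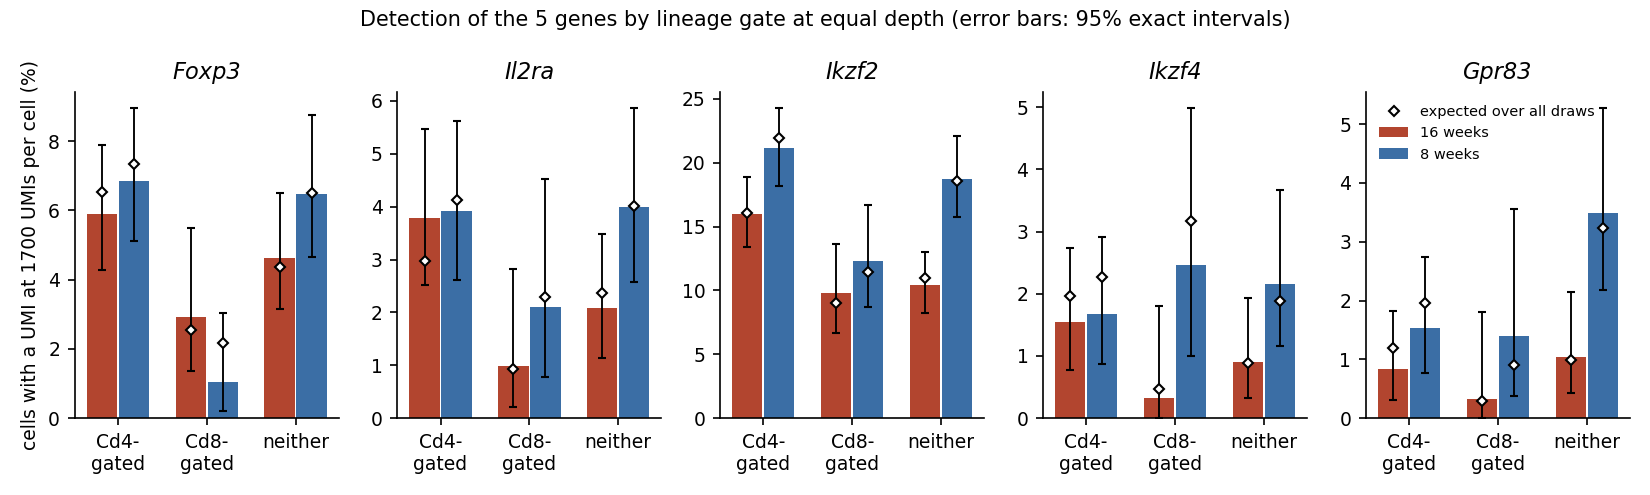
Share of cells with at least 1 UMI of each gene (percent, vertical axis, a separate scale per gene) in Cd4-gated cells, Cd8-gated cells and cells with neither lineage gene at 1700 UMIs per cell, at 16 weeks (red) and 8 weeks (blue). Bars show 1 draw, error bars exact 95% intervals of counting and diamonds the share expected over all draws. *Foxp3* was 5.89% and 6.86% in Cd4-gated cells, and *Ikzf2* was lower at 16 weeks than at 8 weeks in all 3 groups.

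*Ikzf2* was lower in the 16-week than in the 8-week library in Cd4-gated cells and in cells with neither lineage gene, and by CPM also in Cd8-gated cells. In Cd4-gated cells the difference in detection, 16 minus 8 weeks, was -5.16 points (interval -9.18 to -1.12), and its level was 168 CPM at 16 weeks and 214 CPM at 8 weeks, a log2 ratio of -0.35 (-0.51 to -0.19). In cells with neither lineage gene the difference was -8.32 points (-12.2 to -4.45), and over all T cells -5.89 points (-8.34 to -3.44). In Cd8-gated cells it was -2.51 points (-7.68 to 2.56), while the level there was 79.1 CPM at 16 weeks and 108 CPM at 8 weeks (log2 ratio -0.45, -0.82 to -0.085). The Cd4-gated interval reached or passed 0 under 3 alternatives, at -4.05 points (-8.19 to 0.091) with a stricter cell filter, -5.23 points (-10.5 to 0.0151) at 2500 UMIs per cell and -2.50 points (-8.72 to 3.85) when a gate needed 2 UMIs.

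The interval of the age difference in *Foxp3* detection at equal depth included 0 in every gate. The Cd4-gated difference was -0.972 points (-3.55 to 1.59), so that a gap of up to 3.55 points cannot be told from none, and the CPM ratio was 0.15 on the log2 scale (-0.11 to 0.42). Weighting each cell equally turned that ratio to -0.25. *Il2ra* in Cd4-gated cells was 27.9 CPM at 16 weeks and 39.2 CPM at 8 weeks (log2 ratio -0.48, -0.87 to -0.11), a ratio that was -0.23 (-0.74 to 0.26) with a gate from 2 UMIs. The difference in *Il2ra* detection at equal depth was -0.135 points in the draw used (-2.19 to 1.92) and -1.96 points in another draw (-4.02 to 0.0417). *Gpr83* was lower at 16 than at 8 weeks over all T cells, at 0.843% and 2.14% (-1.30 points, -2.17 to -0.496). In cells with neither lineage gene it was 1.04% and 3.49% (-2.44 points, -4.31 to -0.822), and in Cd4-gated cells the difference was -0.699 points (-1.98 to 0.495), or -1.68 points (-3.46 to -0.105) at 2500 UMIs per cell. *Ikzf4* in Cd8-gated cells was 0.326% at 16 weeks and 2.46% at 8 weeks (-2.13 points, -4.67 to -0.174), at 5.17 and 18.0 CPM.

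With 1.5-fold as the bound in CPM, no member passed it in either direction in Cd4-gated cells, where 6.12% of 9689 genes were lower at 16 weeks and 5.83% higher. In *Foxp3*-detected Cd4-gated cells again no member passed, where 9.24% of 6675 genes were lower at 16 weeks and 9.99% higher. Within those cells *Ikzf2* came to 405 CPM at 16 weeks against 418 CPM at 8 weeks, *Il2ra* to 76.0 against 104 CPM, *Ikzf4* to 57.4 against 48.6 CPM and *Gpr83* to 28.7 against 28.3 CPM. In Cd8-gated cells, *Il2ra* (log2 ratio -1.11) and *Ikzf4* (-1.73) of 4 members with enough counts were past 1.5-fold lower, where 9.04% of 7718 genes were.

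Cd4-gated cells with a *Foxp3* UMI carried *Ikzf2* and *Il2ra* more often than cells without one. At 16 weeks, 22 of 42 *Foxp3*-detected cells also had *Ikzf2* at equal depth, 52.4% (36.4 to 68.0), against 92 of 671 undetected cells, 13.7% (11.2 to 16.5). The difference was 38.7 points (23.7 to 53.1). At 8 weeks the shares were 55.1% (27 of 49) and 18.6% (124 of 665), a difference of 36.5 points (22.3 to 49.8). Helios transcript thus accompanied *Foxp3* in over 50% of these cells at 1700 UMIs.

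*Il2ra* gave the next largest contrast. It was found in 23.8% of *Foxp3*-detected (10 of 42) and 2.53% of undetected cells (17 of 671) at 16 weeks, and in 22.4% (11 of 49) and 2.56% (17 of 665) at 8 weeks. The differences were 21.3 points (10.8 to 36.0) and 19.9 points (10.3 to 33.4). This draw lay high, since the expectation over all draws was 14.7% against 2.15% at 16 weeks and 17.7% against 3.05% at 8 weeks.

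*Ikzf4* and *Gpr83* were each seen in 2 of 42 *Foxp3*-detected cells at 16 weeks and 3 of 49 at 8 weeks. *Ikzf4* differed by 3.42 points at 16 weeks (-0.225 to 14.5) and 4.77 points at 8 weeks (0.576 to 15.2), and *Gpr83* by 4.17 points (0.597 to 15.2) and 4.92 points (0.739 to 15.3). Over all draws, *Ikzf4* was expected in 8.75% of *Foxp3*-detected and 1.49% of undetected cells at 16 weeks, and in 8.04% and 1.81% at 8 weeks. The *Gpr83* expectations were 6.46% and 0.83% at 16 weeks, and 7.30% and 1.53% at 8 weeks. At 1000 UMIs per cell the intervals included 0 for *Gpr83* at 16 weeks (2.01 points, -0.544 to 13.7) and for both genes at 8 weeks (0.866 points, -1.42 to 10.8, each). Without cells of several beta chains they included 0 for *Gpr83* at 16 weeks (2.92 points, -0.0938 to 16.7) and *Ikzf4* at 8 weeks (3.46 points, -0.403 to 15.0). With a gate from 2 UMIs the 8-week *Gpr83* difference turned to -0.926 points. At full depth 87 of 93 *Foxp3*-detected cells at 16 weeks (93.5%) and 102 of 116 at 8 weeks (87.9%) had at least 1 other member, against 22.7% and 35.0% of undetected cells.

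**Figure D2:**
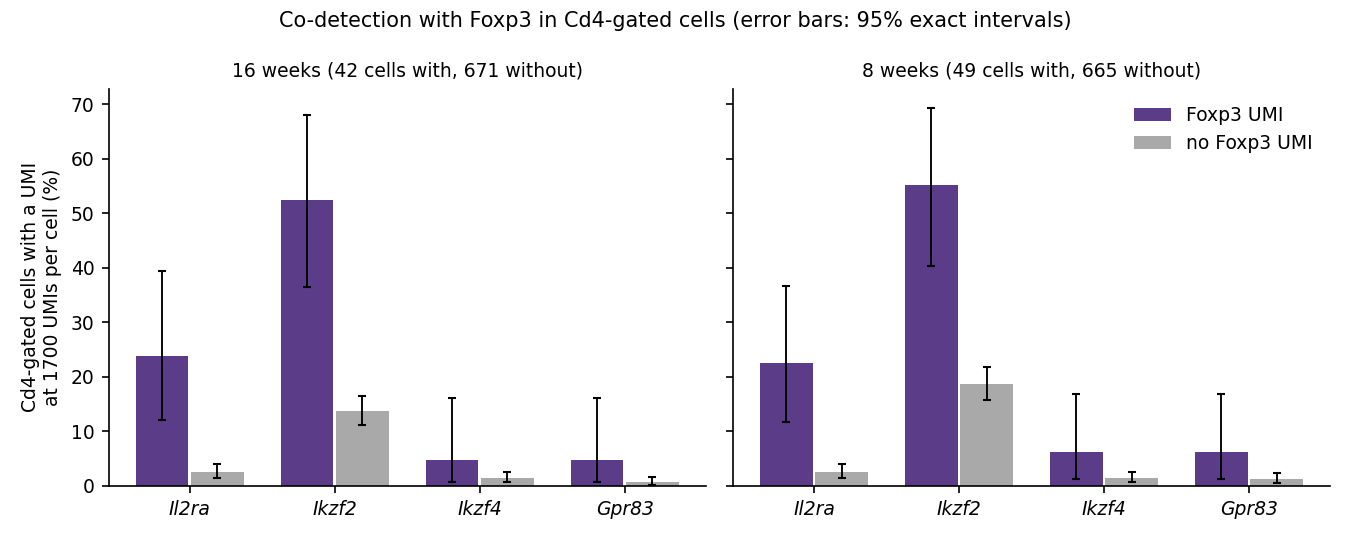
Share of Cd4-gated cells (percent, vertical axis) with a UMI of *Il2ra*, *Ikzf2*, *Ikzf4* or *Gpr83* among cells with a *Foxp3* UMI (purple) and without one (grey), at 16 weeks (left) and 8 weeks (right), all cells at 1700 UMIs. Error bars are exact 95% intervals. *Ikzf2* reached 52.4% and 55.1% of *Foxp3*-detected cells, while *Ikzf4* and *Gpr83* lay between 4.76% and 6.12% with wide intervals.

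Deeper barcodes and barcodes with several beta chains were more frequent among *Foxp3*-detected Cd4-gated cells. Their median depth before thinning was 4654.5 UMIs against 3268 in undetected cells at 16 weeks and 4356 against 3629 at 8 weeks. At full depth 36.3% of *Foxp3*-detected and 14.9% of undetected cells had 2 or more beta chains at 16 weeks, and 29.0% and 10% at 8 weeks. Without such cells the *Ikzf2* difference was 44.2 points at 16 weeks and 36.9 points at 8 weeks, and the *Il2ra* difference 29.1 and 19.9 points. In cells with neither lineage gene, median depths with and without *Foxp3* were 2771 and 2637 UMIs at 16 weeks, and 2789 and 2628 at 8 weeks. There *Ikzf2* was found in 51.6% of *Foxp3*-detected and 8.45% of undetected cells at 16 weeks, and in 56.4% and 16.2% at 8 weeks. *Gpr83* was found in 6.45% and 0.782% at 16 weeks, and in 17.9% and 2.49% at 8 weeks. The part of depth, or of barcodes with more than 1 cell, in the co-detection differences was not tested.

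Seen from the other side, *Foxp3* was found in only some of the cells that had another member. Of *Ikzf2*-detected Cd4-gated cells at equal depth, 19.3% had a *Foxp3* UMI at 16 weeks and 17.9% at 8 weeks, and at full depth 38.8% and 31.9%. Of *Il2ra*-detected cells the shares were 37.0% and 39.3% at equal depth and 52.6% and 54.4% at full depth. Of *Ikzf4*-detected cells 63.4% and 54.5% had *Foxp3* at full depth, and of *Gpr83*-detected cells 58.3% and 59.4%. At full depth *Ikzf2* was thus the member most often seen without *Foxp3*. At equal depth *Foxp3* was in 18.2% of 11 and 25.0% of 12 *Ikzf4*-detected cells. It was in 33.3% of 6 and 27.3% of 11 *Gpr83*-detected cells, so *Ikzf4* was below *Ikzf2* at 16 weeks, from few cells. At equal depth 78.5% of Cd4-gated cells at 16 weeks and 73.2% at 8 weeks had no member at all. At full depth, 1 cell at 16 weeks and 3 cells at 8 weeks had all 5.

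At equal depth, *Foxp3*-undetected cells that held several other members were near *Foxp3*-detected cells in the summed level of 28 other regulatory T cell genes. That list, with genes such as *Ctla4*, *Tnfrsf4*, *Tigit* and *Izumo1r*, holds none of the 5. At 16 weeks the list summed to 7759 CPM in the 42 *Foxp3*-detected cells, 8412 CPM (7090 to 9909) in the 10 undetected cells with 2 or more other members, 5114 CPM in the 101 cells with 1 other and 1778 CPM in the 560 cells with none. At 8 weeks the sums were 6267 CPM in 49 cells, 5756 CPM (4833 to 6805) in 14 cells, 4210 CPM in 128 cells and 2079 CPM in 523 cells. Cells with 2 or more others stood above cells with none by 2.25 (1.99 to 2.49) at 16 weeks and 1.47 (1.21 to 1.72) at 8 weeks on the log2 scale. Of the list's genes with a UMI, 22 of 27 at 16 weeks and 17 of 28 at 8 weeks were higher in them. Against *Foxp3*-detected cells single genes went both ways. At 16 weeks *Ctla4* was at 1118 against 714 CPM and *Izumo1r* at 882 against 1345 CPM. Of the undetected cells with 2 or more others, 5 of 10 and 4 of 14 had a *Foxp3* UMI once all their reads were used. Of cells with no member, 28 of 560 (5.0%) and 31 of 523 (5.93%) did. Without thinning, undetected cells with 2 or more others lay below *Foxp3*-detected cells. The list then summed to 3846 CPM in 29 such cells at 16 weeks, against 5722 CPM in *Foxp3*-detected cells. At 8 weeks it summed to 4096 CPM in 43 such cells, against 5566 CPM. With a gate from 2 UMIs the classes shrank to 3 cells at 16 weeks and 5 cells at 8 weeks, and the log2 values to 0.61 (-0.17 to 1.22) and 0.11 (-0.57 to 0.66), so the level of this small class depends on the gate.

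The sum of a list of 14 genes of conventional effector and naive cells ran the other way between the end classes. In cells with no member, most UMIs of this list came from *Cd40lg*, *Tcf7* and *Lef1*. The list summed to 658 CPM in *Foxp3*-detected cells and 1188 CPM in cells with no member at 16 weeks, and to 420 and 945 CPM at 8 weeks. The log2 ratios were -0.84 (-1.30 to -0.43) and -1.15 (-1.70 to -0.68). Single genes did not all follow the sum. Of those with a UMI, 5 of 12 at 16 weeks and 4 of 13 at 8 weeks were higher in *Foxp3*-detected cells. At 16 weeks *Ifng* (8 UMIs), *Tnf* (9), *Lta* (4) and *Cxcr5* (2) were among the higher ones. At full depth, over all undetected cells, their 16-week log2 ratios were 0.48, -0.54, -0.62 and -0.004. In undetected cells with 2 or more others the list summed to 471 and 672 CPM, with intervals of 203 to 927 and 384 to 1092.

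**Figure D3:**
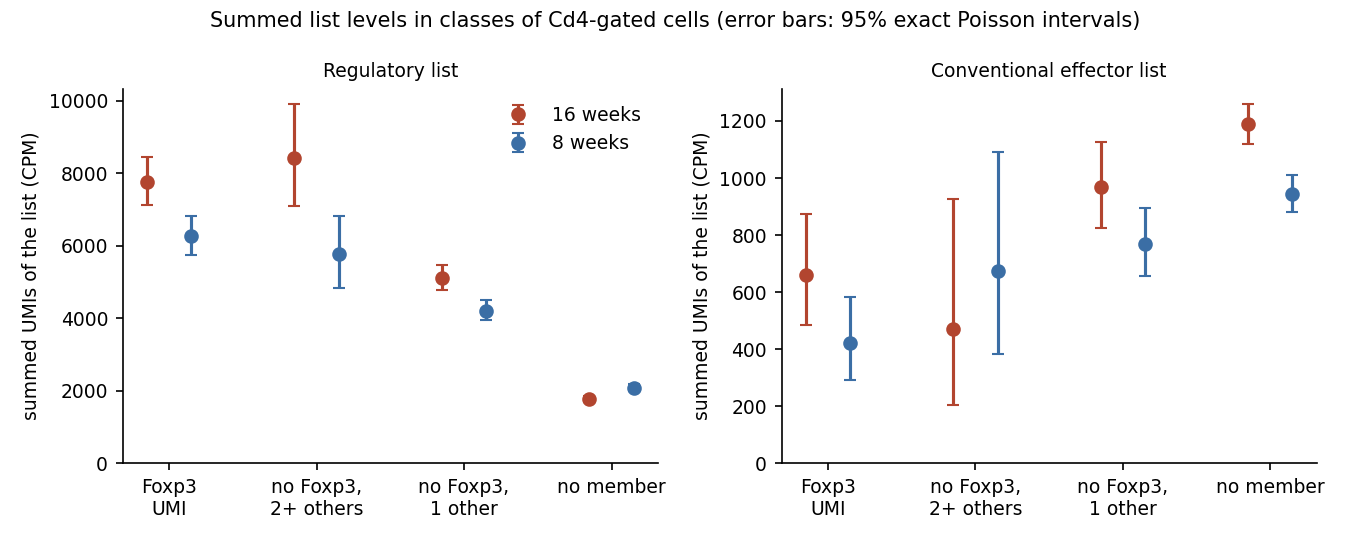
Summed level (CPM, vertical axes from 0) of the regulatory list (left) and the conventional effector list (right) in 4 classes of Cd4-gated cells at 1700 UMIs per cell, at 16 weeks (red) and 8 weeks (blue), with exact 95% Poisson intervals as bars. The regulatory list lay at 7759 and 6267 CPM with *Foxp3* detected and at 1778 and 2079 CPM with no member detected.

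*Foxp3* UMIs were also found in Cd8-gated cells, and those cells carried other members too. At full depth there were 16 such cells at 16 weeks and 15 at 8 weeks, of which 7 at 16 weeks and 6 at 8 weeks had 2 or more *Foxp3* UMIs and the highest had 4 and 7. Another member was found in 14 of the 16, 87.5% (61.7 to 98.4), against 14.7% of 306 *Foxp3*-undetected Cd8-gated cells, and in 14 of the 15, 93.3% (68.1 to 99.8), against 24.6% of 280. *Ikzf2* was found in 14 of the 16 and 13 of the 15. The regulatory list stood at 2535 CPM in *Foxp3*-detected and 1027 CPM in undetected Cd8-gated cells at 16 weeks, and at 4444 and 1353 CPM at 8 weeks. Higher sums, 5722 CPM at 16 weeks and 5566 CPM at 8 weeks, were found in *Foxp3*-detected Cd4-gated cells.

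These Cd8-gated cells were deep and often had 2 beta chains. Their median depth was 6229.5 UMIs against 3211 in undetected Cd8-gated cells at 16 weeks, and 6475 against 3307 at 8 weeks. Among those with a beta chain, 4 of 15 (26.7%) at 16 weeks and 7 of 12 (58.3%) at 8 weeks had 2 or more, against 7.22% and 10.4% of undetected cells. Fewer had 2 or more *Cd8a* and *Cd8b1* UMIs, 10 of 16 (62.5%) against 85.9% at 16 weeks and 11 of 15 (73.3%) against 87.1% at 8 weeks. *Runx3*, a Cd8 lineage factor, was at 97.5 CPM (48.7 to 174) against 91.1 CPM at 16 weeks and 101 (46.2 to 192) against 81.7 CPM at 8 weeks. It rests on 11 and 9 UMIs, and both intervals include the 58.8 CPM of *Foxp3*-detected Cd4-gated cells at either age. *Cd40lg* and *Zbtb7b*, of the Cd4 lineage, gave 3 UMIs and 1 UMI in all. That was 26.6 CPM (5.48 to 77.7) against 12.1 CPM in undetected Cd8-gated cells at 16 weeks, and 11.2 CPM (0.284 to 62.5) against 20.8 CPM at 8 weeks. The same sum in *Foxp3*-detected Cd4-gated cells, 104.7 CPM (16 weeks) and 99.5 (8 weeks), lay above these intervals. Without 2-beta barcodes another member was found in 83.3% and 87.5% of the fewer *Foxp3*-detected Cd8-gated cells left. Barcodes without a second beta chain can also hold more than 1 cell, and what share does was not tested. At equal depth 9 and 3 Cd8-gated cells kept a *Foxp3* UMI, and 6 and 2 of them another member.

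Dividing cells were those with 2 or more of 14 division genes at 1700 UMIs, 50 of 713 Cd4-gated cells at 16 weeks and 81 of 714 at 8 weeks. *Foxp3* was found in 4 of 50 dividing (8.0%) and 5.73% of non-dividing cells at 16 weeks, a difference of 2.27 points (-2.99 to 13.2). At 8 weeks it was found in 11 of 81 dividing (13.6%) and 6.0% of non-dividing cells, a difference of 7.58 points (1.38 to 16.8). Read the other way, 22.4% of *Foxp3*-detected and 10.5% of undetected cells were dividing at 8 weeks (11.9 points, 2.16 to 25.5), against 9.52% and 6.86% at 16 weeks (2.67 points, -3.48 to 15.3). The 8-week interval included 0 in 7 of the 11 other settings tried. The difference was 4.21 points (-3.27 to 16.6) in another draw, 1.40 points (-4.77 to 14.1) at 1000 UMIs per cell and 3.55 points (-5.58 to 16.6) at 2500. It was 8.78 points (-0.340 to 23.4) with barcodes of several beta chains left out and 13.1 points (-2.24 to 34.8) with a gate from 2 UMIs. With 3 or more division genes required it was 6.77 points (-0.768 to 19.3), and by *Mki67* or *Top2a* 3.44 points (-2.72 to 15.1). The 16-week difference turned to -1.92 points in another draw, -3.12 points at 2500 UMIs, -1.71 points with a gate from 2 UMIs and -1.79 points by *Mki67* or *Top2a*, and was 14.4 points (6.34 to 24.3) without thinning. At equal depth neither library thus gave a stable difference in dividing cells.

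In the same draw *Ikzf2* was found in 26.0% of dividing and 15.2% of non-dividing Cd4-gated cells at 16 weeks, and in 29.6% and 20.1% at 8 weeks (10.8 points, 0.221 to 24.5, and 9.57 points, 0.134 to 20.6). *Il2ra* was found in 10% and 3.32% at 16 weeks, and in 7.41% and 3.48% at 8 weeks. *Gpr83* was in none of 50 and none of 81 dividing cells, which allows a share of up to 6.0% and 3.70%, against 0.905% and 1.74% of non-dividing cells. No *Foxp3* UMI was seen in the 12 and 21 dividing Cd8-gated cells, which allows up to 25.0% and 14.3%. Dividing Cd4-gated cells were deep before thinning, with medians of 10653 UMIs against 3222 in non-dividing cells at 16 weeks and 12212 against 3326 at 8 weeks. The part of depth in these differences beyond thinning was not tested.

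Receptor sequences tie cells to clones, here cells of 1 library with the same V gene, J gene and CDR3 nucleotides of both chains, the CDR3 being the stretch that contacts antigen most. There were 37 clones of 2 or more cells at 16 weeks (96 cells) and 65 at 8 weeks (199 cells). A *Foxp3*-detected cell was in 9 clones at 16 weeks and 17 at 8 weeks, and in 7 and 14 of those the *Foxp3*-detected cells stood beside undetected ones. In the clones with such a cell, 13 of 30 and 24 of 56 cells had a *Foxp3* UMI. The difference in *Foxp3* detection between clones of 2 or more cells and single-cell clones was within counting error at equal depth, at 7.61% and 6.0% at 16 weeks (1.61 points, -2.53 to 8.98) and 5.61% and 6.34% at 8 weeks (-0.730 points, -3.66 to 3.63). Leaving out cells with 2 or more beta chains left 4 clones with a *Foxp3* cell at 16 weeks and 11 at 8 weeks.

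At 8 weeks, at full depth, *Foxp3* was found more often in clone mates of *Foxp3*-detected cells than in mates of undetected ones. Of 31 mates of *Foxp3*-detected cells at 16 weeks, counted as ordered pairs that share cells, 25.8% had *Foxp3*, against 13.1% of 175 mates of undetected cells, and at 8 weeks 31.25% of 64 against 7.67% of 574. The differences were 12.7 points at 16 weeks (-0.762 to 30.6) and 23.6 points at 8 weeks (13.3 to 35.9). These intervals treat the pairs as independent, which they are not, so they are too narrow. At 8 weeks 1 clone of 7 cells, 4 of them with *Foxp3*, gave most of the pairs in which both cells had it. For *Ikzf2* the shares were 55.0% and 50.5% at 16 weeks, and 46.3% and 47.1% at 8 weeks. At equal depth the *Foxp3* shares were 4 of 13 mates (30.8%) and 5.14% at 16 weeks, and 4 of 24 (16.7%) and 3.38% at 8 weeks. The 16-week difference turned to -6.82 points with another random draw and to -1.48 points at 1000 UMIs per cell, so the 16-week direction was not stable at this depth.

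**Figure D4:**
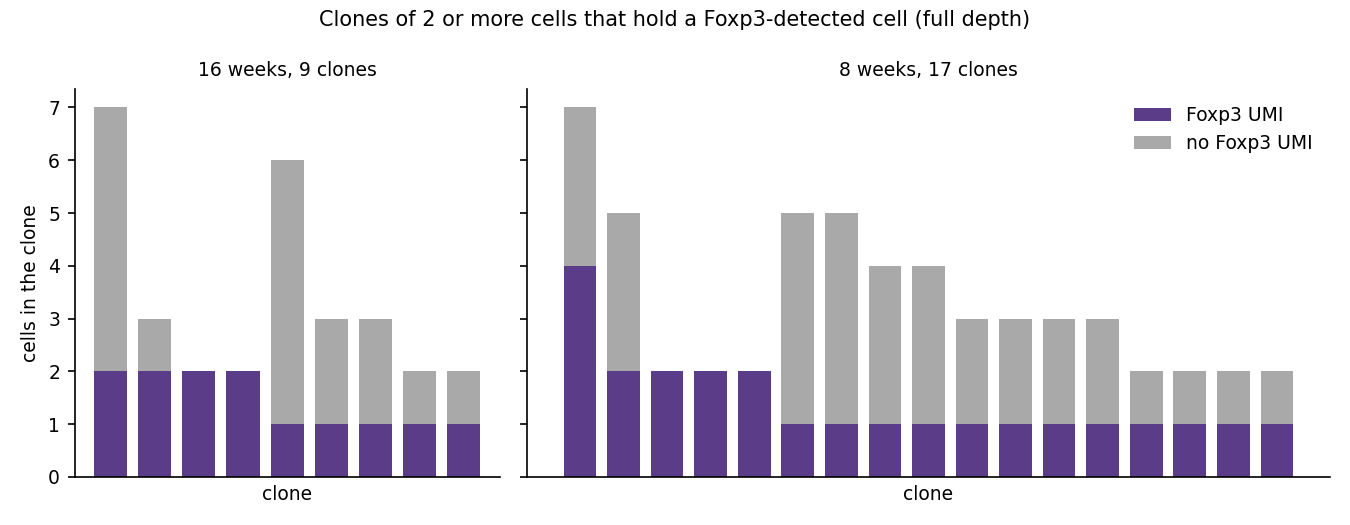
Cells in each clone of 2 or more cells that held at least 1 *Foxp3*-detected cell (vertical axis, number of cells, 1 bar per clone) at 16 weeks (left) and 8 weeks (right), with *Foxp3*-detected cells in purple and the others in grey. The 9 clones at 16 weeks and 17 at 8 weeks include 2 and 3 clones in which every cell had a *Foxp3* UMI.

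The largest clone with *Foxp3* at 8 weeks had 7 cells, 4 with *Foxp3*, and used TRBV15 with TRBJ2-5 and TRAV13D-2 with TRAJ53. At 16 weeks the largest also had 7 cells, 2 with *Foxp3*, and used TRBV15 with TRBJ2-7 and TRAV14-1 with TRAJ15, but 5 of its 7 cells had 2 or more beta chains. A clone of 4 cells at 8 weeks, all Cd8-gated and with TRBV3, had 1 *Foxp3* cell. By nucleotides of both chains, 1 receptor occurred at both ages, in 2 cells at each and with no *Foxp3* UMI. By the V and J genes and the encoded CDR3 amino acids, 3 receptors did, and 1 of them had a *Foxp3*-detected cell at both ages.

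That receptor, TRBV15 with TRBJ2-7 and TRAV16N with TRAJ23, is shown because its nucleotides differ between the ages while the encoded CDR3 is the same. Its V genes lie on chromosomes 6 (beta) and 14 (alpha), and capitals mark bases that differ from the 16-week version, counted from 1 at the 5′ end.
16 weeks, beta: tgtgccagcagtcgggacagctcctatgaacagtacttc
8 weeks, first version, beta: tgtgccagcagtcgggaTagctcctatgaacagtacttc
8 weeks, second version, beta: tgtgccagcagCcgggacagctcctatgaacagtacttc
16 weeks, alpha: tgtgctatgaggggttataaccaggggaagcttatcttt
8 weeks, first version, alpha: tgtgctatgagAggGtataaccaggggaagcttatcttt
8 weeks, second version, alpha: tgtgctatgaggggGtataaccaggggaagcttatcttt
The 8-week versions differ by C18T in beta with G12A and T15G in alpha, and by T12C in beta with T15G in alpha. The 16-week version was in 3 cells, of which 1 had *Foxp3* and 2 had *Ikzf2*. The first 8-week version was in 5 cells, of which 1 had *Foxp3* and 3 had *Ikzf2*, and the second was in 2 cells with neither gene. Of the 3 cells at 16 weeks 1 had transcripts of both lineages and 2 had 2 or more beta chains. Of the 5 cells of the first 8-week version 2 had both lineages and none had 2 or more beta chains.

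Across all genes at full depth, 3 of the other 4 members were among the 10 most like *Foxp3*, a top 10 that changed with the settings. Likeness was the smaller of the 2 libraries' log2 ratios of CPM in Cd4-gated cells with a *Foxp3* UMI (93 at 16 weeks and 116 at 8 weeks) over those without. Of 8182 genes with 20 or more UMIs over both classes in each library, 146 were 2-fold or more higher in both. These were 1.78% of those tested, and all 4 members were among them. Without the *Foxp3*-detected cells, *Gpr83* (12 UMIs at 16 weeks and 14 at 8 weeks) and *Ikzf4* at 16 weeks (17 UMIs) would miss that minimum. The median gene stood at 0.12 at 16 weeks and 0.07 at 8 weeks. The *Foxp3*-detected cells were the deeper ones at full depth, with medians of 6003 UMIs against 3051 at 16 weeks and 5813 against 3196 at 8 weeks, and the part of depth in these ratios was not tested.

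*Gpr83* ranked 4, at 28.7 CPM with and 4.50 CPM without *Foxp3* at 16 weeks (log2 ratio 2.65) and 28.3 and 4.56 CPM at 8 weeks (2.61), from 20 and 12 UMIs and 25 and 14 UMIs. *Ikzf4* ranked 8, at 57.4 and 6.37 CPM (3.15) and 48.6 and 9.77 CPM (2.31). *Il2ra* ranked 9, at 76.1 and 15.4 CPM (2.30) and 104 and 20.5 CPM (2.34). *Ikzf2*, the most abundant, ranked 54, at 405 and 106 CPM (1.93) and 418 and 156 CPM (1.43). By this ratio at full depth, *Ikzf2*, seen most widely outside *Foxp3*-detected cells, ranked lowest of the 4. In co-detection at equal depth it gave the largest difference of the 4, at 38.7 points at 16 weeks and 36.5 points at 8 weeks. The order thus depends on the measure.

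The remaining 7 of the 10 were led by *Itgae*, which encodes the CD103 integrin of tissue-resident and regulatory T cells, with log2 ratios of 3.34 at 16 weeks and 3.04 at 8 weeks. *Gzmb*, which encodes granzyme B, came next (2.67 and 2.78), but in 9 and 12 cells, with 31 of 52 and 22 of 54 UMIs in 1 cell each. *Epcam*, an adhesion molecule, had 2.64 and 2.69. *Snx9*, a sorting nexin of membrane traffic, had 2.49 and 2.61, and *Fgl2*, a secreted suppressor molecule of regulatory cells, had 3.40 and 2.45. *Il1r2*, the decoy receptor for interleukin-1, had 2.38 and 3.47, and *Arl5a*, a small GTPase of vesicle traffic, 2.31 and 2.30. The ranking rests on few UMIs: with cells thinned first, 165 genes passed, of which 37 were among the 146, and of the members *Il2ra* and *Ikzf2* passed. Of the 10 top genes, 3 stayed in the top 10 with thinned cells, 0 with no minimum and 6 with a minimum of 50 UMIs. It was 5 without barcodes of several beta chains, 5 with cells weighted equally and 10 with 3 UMIs added to each sum. *Gpr83* was not among the genes that passed with a minimum of 50 UMIs.

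**Figure D5:**
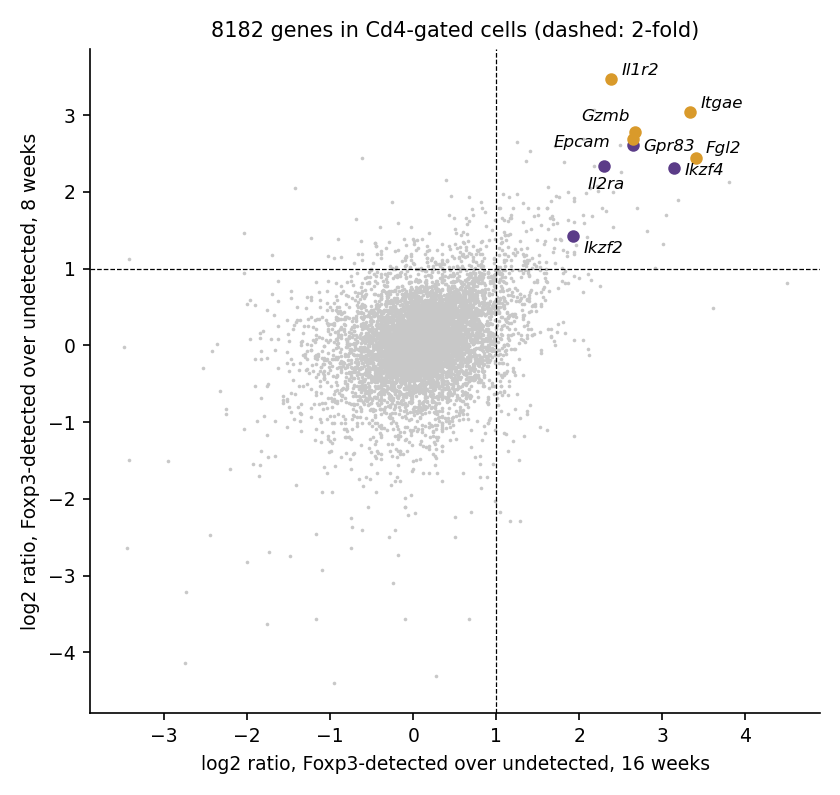
Log2 ratio of CPM in *Foxp3*-detected over undetected Cd4-gated cells for 8182 genes at 16 weeks (horizontal axis) and 8 weeks (vertical axis), with dashed lines at 2-fold. The other 4 members are purple, other top genes with a name are orange and the rest grey. *Ikzf4*, *Gpr83* and *Il2ra* lie among the 10 most like *Foxp3* at full depth, and *Ikzf2* at 1.93 and 1.43.

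Among the lists, which were chosen with earlier results of these data known, regulatory genes followed *Foxp3* most closely. Of 25 tested, 15 were 2-fold or more higher in both libraries, against 1.78% of all genes, with medians of 1.36 at both ages. Its members with most UMIs were *Izumo1r*, the folate receptor 4 gene (1.08 at 16 weeks and 0.63 at 8 weeks), *Rgs1*, a brake on chemokine receptor signals (1.08 and 0.84), *Tnfrsf4*, the OX40 gene (1.36 and 1.49), and the inhibitory receptor gene *Tigit* (1.18 and 1.12). The list holds *Itgae* and *Fgl2* of the 10 genes above. Of 11 conventional effector genes tested, none was 2-fold or more higher in both libraries and 2 were 2-fold or more lower (the helper cytokine genes *Il21* and *Il4*, named after their values were seen), with medians of -0.62 and -0.95. *Il21* stood at -1.85 (-2.94 to -1.03) and -1.56 (-2.47 to -0.83), while *Il4* rests on 1 UMI and 2 UMIs in *Foxp3*-detected cells, with intervals that included 0 at both ages. The naive-cell factors *Lef1* (-1.44 and -0.95) and *Tcf7* (-0.99 and -1.38) and the helper ligand gene *Cd40lg* (-0.97 and -0.80) stood below 0, and *Ifng*, which encodes interferon gamma, at 0.48 and -0.25.

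The partners of CD25 did not follow it to the same degree. Of 11 genes of the interleukin-2 receptor pathway tested, none reached 2-fold in both libraries, with medians of 0.31 and 0.17. *Il2rb*, which encodes the shared beta chain, stood at 0.94 and 0.91, and *Il2rg*, the common gamma chain, at -0.02 and 0.15. *Jak1*, the kinase bound to the beta chain, stood at 0.11 and 0.18, and *Socs3*, a feedback inhibitor, at 0.77 and 0.17. Of the other Ikaros family genes, none reached 2-fold: *Ikzf3* (Aiolos) stood at 0.71 and 0.76, *Ikzf5* at 0.40 and 0.49 and *Ikzf1* (Ikaros) at -0.53 and -0.66. Of 20 genes for partners and regulators of Foxp3, none reached 2-fold in both, with medians of 0.07 and 0.11. There the receptor-signal gene *Nr4a1* stood at 0.50 and 1.66 and the quiescence factor *Foxp1* at -1.11 and -0.28. *Hif1a*, the oxygen-sensing factor, stood at 0.36 and 0.07 and *Nfatc1* at -0.05 and -0.18. At full depth, where *Foxp3*-detected cells were deeper, 13 of 14 division genes were higher with *Foxp3* in both libraries. At equal depth the share of dividing cells gave no stable difference with *Foxp3*, and the part of depth was not tested. The 14 had medians of 0.97 and 1.00, and 3 were 2-fold or more higher in both libraries, against 1.78% of all genes. Those 3 were the histone gene *Hist1h2ap* (1.70 and 1.27), *Birc5*, which encodes survivin (1.11 and 1.44), and *Mki67*, the Ki-67 gene (1.53 and 1.03), the last named after its values were seen. *Stmn1*, which encodes a microtubule regulator, stood at 0.94 and 0.84, and *Ube2c*, a ubiquitin-conjugating enzyme of mitosis, at -0.69 and 1.65.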

How the data were processed

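The files deposited by the authors give UMI counts for each gene in each barcode, and lists of assembled receptor chains, per the file headers. The matrices carry Cell Ranger's layout, the submitters' processing notes name Seurat and mm10, and an aligner, a barcode filter or an annotation version was not given in the sources used here. From these counts, barcodes were kept that had at least 500 genes and at most 10% mitochondrial UMIs (1934 of 2107 barcodes at 16 weeks and 1875 of 2043 at 8 weeks), and 5 and 12 were left out as not T cells. No doublet caller was run, and cells were not clustered. Receptors were joined to cells by barcode within an age. Each cell was thinned once to 1700 UMIs without replacement. CPM are summed UMIs over all UMIs of a group, and 0.5 UMI was added to each sum in ratios.

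Intervals are at 95%: exact Clopper-Pearson for shares, Newcombe for differences, exact Poisson for sums and exact conditional for ratios. With 1 library per age no p-value was computed. An interval covers counting error only, and a count of 0 allows a share of up to 3 counts of the total. The ratio across genes was tested on simulated counts with changes set in abundant genes only, so the ranks of genes with few UMIs were not tested. The 5 genes and the gene lists were chosen with earlier results of these data known. *Il2* stands in the conventional and the interleukin-2 lists, and *Socs2* in the regulatory and the interleukin-2 lists. Genes named beyond the 5 are up to 4 per list with most UMIs and the 10 most like *Foxp3*, unless stated otherwise. *Pclaf* of the division list and *Trac*, *Trbc1* and *Trbc2* of the T cell markers had no row under those names. Alternatives were other thinning depths and draws, stricter cells, stricter gates, no barcodes with 2 or more beta chains, other clone definitions and other ways to sum; the expected co-detection over all draws was added after seeing the data. Python 3.11.15, numpy 2.4.6, pandas 2.3.3, scipy 1.17.1 and matplotlib 3.10.9 were used.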

Additional observations from a re-analysis of the deposited data

Results flagged for a closer look

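Some differences had opposite signs at the 2 ages, and whether they differ between the ages was not tested. *Ikzf4* detection in Cd4-gated minus Cd8-gated cells was 1.22 points at 16 weeks and -0.775 points at 8 weeks. In Cd8-gated cells, *Ikzf4* detection with minus without *Foxp3* was -0.336 points at 16 weeks and 31.2 points at 8 weeks, from 9 and 3 *Foxp3*-detected cells. *Gpr83* in the same cells gave 11.1 points at 16 weeks and -1.42 points at 8 weeks. *Foxp3* detection in clones of 2 or more cells minus single-cell clones was 1.61 points at 16 weeks and -0.730 points at 8 weeks.

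Members were also seen in the 173 and 168 barcodes left out for few genes or many mitochondrial UMIs, with medians of 970 and 836.5 UMIs, above the share that a count of 0 allows (1.73% and 1.79%). At 16 weeks *Foxp3* was in 2.89% of them (5 barcodes) and *Ikzf2* in 9.83%. At 8 weeks *Ikzf2* was in 21.4% and *Ikzf4* in 2.38%. No group held 4 or more libraries, so no library could be compared with others of its group.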

How the results depend on the processing

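No paired analysis was possible because each age has 1 RNA library. Of 327 alternative values of 39 results, 274 lay within the main value's interval (or 1.5 times a count), 50 outside it, and 3 turned sign where that interval left out 0. Of 182 alternatives to results whose interval left out 0, 29 had intervals that included it; of 111 to the others, 16 turned sign and 14 left out 0. Where no value shows it, the cause was not tested. Differences below are in points, and a pair of values stands for 16 weeks and 8 weeks.

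Without thinning, the 16 minus 8 week differences in Cd4-gated cells were -2.54 (*Il2ra*), -10.8 (*Ikzf2*) and -1.59 (*Ikzf4*). Cd4-gated minus Cd8-gated differences at 16 weeks were 7.56 (*Foxp3*), 5.20 (*Il2ra*), 11.1 (*Ikzf2*), 3.66 (*Ikzf4*) and 2.30 (*Gpr83*), and at 8 weeks 9.92 (*Foxp3*), 4.80 (*Il2ra*) and 16.9 (*Ikzf2*). Co-detection differences with *Foxp3* in Cd4-gated cells were 67.4 and 51.6 (*Ikzf2*) and 25.6 and 22.1 (*Ikzf4*), and the regulatory list's log2 ratio for 2 or more other members over none was 1.35 and 1.17.

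At 2500 UMIs per cell, the Cd4-gated minus Cd8-gated difference at 16 weeks was 8.21 (*Foxp3*) and 14.6 (*Ikzf2*), *Ikzf2* co-detection 53.6 at 16 weeks, the list's log2 ratio 1.69, and 100% of *Foxp3*-detected Cd8-gated cells had another member. At 1000 UMIs, that share was 42.9% and 57.1%, *Il2ra* co-detection at 16 weeks 7.01, the list's log2 ratio at 16 weeks 1.47, the *Foxp3* gate difference at 8 weeks 3.10, the 8-week dividing difference 1.40 and the 16-week clone-mate difference -1.48. Another draw gave -6.82 for that last value.

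With a gate from 2 UMIs, *Ikzf4* 16 minus 8 weeks was -1.60, the *Foxp3* gate difference at 16 weeks 5.54, *Gpr83* co-detection at 8 weeks -0.926, the list's log2 ratio 0.61 and 0.11, the *Foxp3* CPM ratio 0.49 on the log2 scale, and 100% of *Foxp3*-detected Cd8-gated cells at 16 weeks had another member. With *Foxp3* called from 2 UMIs at full depth, the gate difference at 16 weeks was 5.85, that share 100% at both ages, and 11 clones at 8 weeks held a *Foxp3* cell. Without cells with 2 or more beta chains, the list's log2 ratio at 16 weeks was 2.59 and the clones with a *Foxp3* cell 4 and 11; by beta chain alone they were 17 and 27, and by the deposited clonotypes 4 and 9. By beta chain alone the 16-week clone-mate difference was 2.23.

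Weighting cells equally gave -0.25 for the *Foxp3* CPM ratio and 223 genes 2-fold higher with *Foxp3*; no minimum gave 568 and a minimum of 50 UMIs 71. Depth limits *Ikzf4* and *Gpr83* most, with at most 12 detected Cd4-gated cells per library at equal depth.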

Other observations

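*Areg*, which encodes the tissue repair factor amphiregulin, is in the regulatory list and was chosen here after its values were seen. In *Foxp3*-detected Cd4-gated cells it reached 169 CPM at 16 weeks against 75.8 CPM at 8 weeks, a log2 ratio of 1.16 (0.72 to 1.62), from 118 and 67 UMIs. In all Cd4-gated cells it made up 44.6 CPM at 16 weeks against 30.3 CPM at 8 weeks. In the same *Foxp3*-detected cells *Ikzf3* (Aiolos) was at 122 CPM at 16 weeks against 182 CPM at 8 weeks (-0.57, -0.97 to -0.19), and *Ikzf1* (Ikaros) at 94.7 and 63.3 CPM (0.58, 0.04 to 1.12). With 1 library per age, these differences have no replicate check.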
